A study of Mus musculus with 4 samples.

Results

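The SLC22 organic ion transporters described here are 9 genes taken by symbol from the 31053 genes of the deposited matrices: *Slc22a2*, *Slc22a6*, *Slc22a7*, *Slc22a8*, *Slc22a12*, *Slc22a13*, *Slc22a19*, *Slc22a28* and *Slc22a30*. They were followed along the proximal tubule, in the other cell types of the kidney and between knockout and control mice. The data are single-nucleus RNA-seq of the kidneys of 4 male mice aged 12 weeks, with 1 library per mouse. The 2 knockout mice were *Hoxb7Cre+;Tfap2a fl/fl*, and the 2 control mice lacked Cre but carried the same floxed *Tfap2a* alleles. The *Hoxb7* promoter drives Cre in the ureteric bud and the collecting duct that forms from it, and the proximal tubule lies outside these cells. A slice from the middle of each kidney was used after part of the cortex had been cut away to enrich the medulla, which limits how much of the cortical proximal tubule was sampled.

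SLC22 proteins move small organic ions across the cell membrane, and in the kidney they are best known for the uptake and secretion of drugs, toxins and metabolites by the proximal tubule. That tubule runs from segment S1 at the glomerulus through S2 to the straight segment S3 that enters the outer medulla. *Slc22a2* encodes OCT2, which takes organic cations from the blood side into the cell. *Slc22a6* and *Slc22a8* encode OAT1 and OAT3, which take up organic anions from the blood side, OAT1 in exchange for dicarboxylates. *Slc22a7* encodes OAT2, another organic anion transporter. *Slc22a12* encodes URAT1, which takes urate back from the lumen, and *Slc22a13* encodes OAT10, which carries nicotinate and urate. *Slc22a19* encodes the rodent carrier OAT5, and *Slc22a28* and *Slc22a30* are rodent members of the same anion transporter branch.

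In the coordinates of mm10, the genome build of the files, 5 of the 9 genes lie in 1 block of chromosome 19, chr19:7673075-8628299, which spans 955 kb. RefSeq lists 8 protein-coding genes there, and all 8 are SLC22 genes: *Slc22a19*, *Slc22a26*, *Slc22a27*, *Slc22a28*, *Slc22a29*, *Slc22a30*, *Slc22a8* and *Slc22a6*, in this order. *Slc22a12* lies on the same chromosome outside that block, at chr19:6535854-6543070. *Slc22a2* (chr17:12584189-12628489) and *Slc22a7* (chr17:46432185-46438477) are on chromosome 17, and *Slc22a13* (chr9:119192966-119209105) is on chromosome 9.

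The libraries held between 22179410 and 44964099 UMIs, a UMI being 1 counted RNA molecule, and 27341 nuclei were kept with medians of 2506 to 2797 UMIs in the 4 mice. Proximal tubule nuclei made up 52.2% (mouse 1) and 35.8% (mouse 2) of control nuclei, and 54.4% and 53.9% of knockout nuclei. The mice numbered 1 stood apart from those numbered 2 in both genotypes: the median mitochondrial share of UMIs was 1.66% and 1.05% against 0.671% and 0.417%, and damaged nuclei made up 3.32% and 7.2% against 0.479% and 0.486%. Pairs of libraries shared between 7 and 18 cell barcodes, where 4.94 to 9.11 were expected for independent sets. Each pair was above its expected number, the most being control mouse 2 with knockout mouse 1 (18 against 6.39). *Tfap2a* itself gave 55.8 and 95.6 UMIs per 1000000 UMIs of the class (CPM) in the principal cells of the collecting duct (CD-PCs) of the control mice and 60.9 and 107 in those of the knockout mice. Since the 3′ end of the transcript is counted, this does not check the deletion inside the gene.

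The nuclei were clustered without any SLC22 gene and without 20 genes of partner transporters, so that the transporters did not shape the clusters. The proximal tubule fell into 5 clusters, which were placed in order by marker lists of the 3 segments, 2 of them S1-like, 2 S2-like and 1 S3-like. Summed over the 8 markers of S1, levels were 10825 to 12423 CPM in S1-like nuclei and 524 to 694 in S3-like nuclei. The 9 markers of S3 summed to 14306 to 17511 CPM in S3-like and to 732 to 1253 in S1-like nuclei. The 6 markers of S2 did not set S2 apart from S1, with 5916 to 6642 CPM in S2-like and 6316 to 7467 in S1-like nuclei, and the summed list alone does not separate these segments. Clusters were named by the list with the highest mean marker level relative to the highest cluster, which was S2 in both S2-like clusters (0.697 and 0.572), while the second S1-like cluster reached 0.601 for S2 and 0.732 for S1. The second S2-like cluster was the nearest to S3, with 0.497 for the S3 list. Injury markers such as *Havcr1* and *Vcam1*, 6 in all, summed to between 3.53 and 160 CPM across the 3 segments.

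The transporters differed along the tubule, with log2 differences of S3 from S1 between −4.18 (*Slc22a8*) and 5.57 (*Slc22a19*). All 8 members with any UMI differed between S3-like and S1-like nuclei, 5 higher and 3 lower in S3, where 43.2% of 17699 genes were called, 21.9% higher and 21.4% lower (edgeR's quasi-likelihood test on sums per mouse with the mouse as a term, Benjamini-Hochberg adjusted p under 0.05). Between S2-like and S1-like nuclei 7 of 8 differed, 6 of them higher and 1 lower in S2, where 29.4% of all genes were called, 15.6% higher and 13.8% lower. Between S3-like and S2-like nuclei 7 of 8 differed, 2 higher and 5 lower in S3, against 30.6% of all genes, 14.5% higher and 16.2% lower. The counts depend on the second S2-like cluster. With it counted as S3-like, an alternative chosen after seeing the data, 4 of 8 were called between S2 and S1, where *Slc22a8* turned to 0.17 and *Slc22a19* to −0.24, and *Slc22a6* turned to 0.10 in S3 against S1 and *Slc22a30* to 0.07 in S3 against S2. The median log2 difference of the 8 members between S2 and S1 was 0.93, and that of all genes was 0.04.

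**Figure D1:**
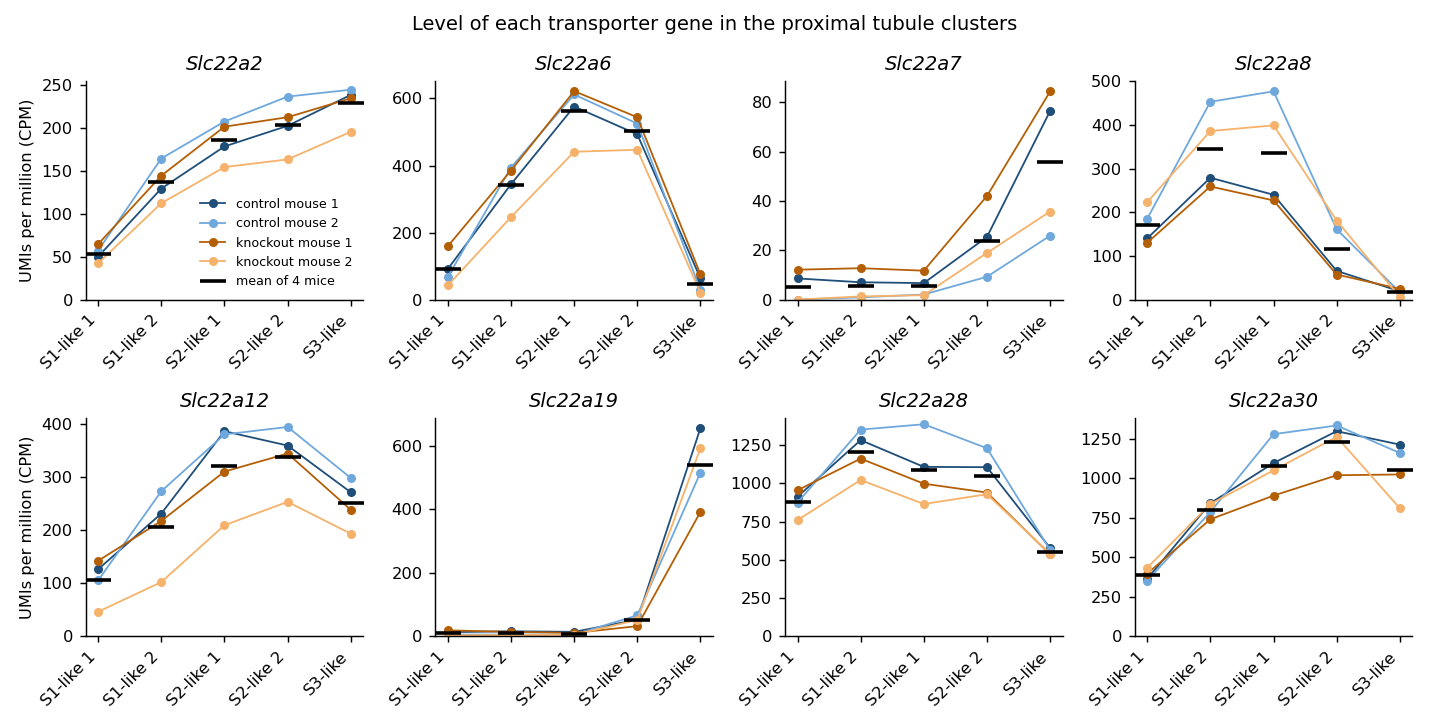
Level of each of the 8 detected transporter genes (y axis, CPM of the cluster, each panel on its own scale from 0) in the 5 proximal tubule clusters in the order S1-like to S3-like (x axis), with 1 line per mouse and a black bar at the mean of the 4 mice. *Slc22a19* stays below 70 CPM until the last cluster and then reaches 392 to 656 CPM, whereas *Slc22a6* and *Slc22a8* drop there.

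*Slc22a8* (OAT3) was low in S3 and higher before it. In S1-like nuclei it stood at 230 and 362 CPM in control mice 1 and 2 and at 220 and 338 CPM in knockout mice 1 and 2. In S2-like nuclei the same mice had 129, 276, 127 and 271 CPM, and in S3-like nuclei 18.8, 16.6, 24.4 and 5.52 CPM. The level fell from S1 to S2 and again to S3 in every mouse, and no S3 value reached those of another segment, while S1 and S2 overlapped across mice. On the log2 scale the difference of S2 from S1 was −0.55 (SE 0.16, adjusted p = 0.0112), a call that was lost without control mouse 1 (−0.47) and with DESeq2 (−0.54) and turned to 0.17 with the second S2-like cluster counted as S3-like, and that of S3 from S1 was −4.18 (SE 0.23, adjusted p = 3.13e-13). The S3-like nuclei held 183 UMIs of *Slc22a8*, and 142 were expected there from free RNA, that is, RNA from broken cells that enters every droplet, and with that amount subtracted the mean S3 level was 4.26 in place of 16.3 CPM. By cluster, the mean level was 170, 344, 336, 116 and 16.3 CPM from the first S1-like to the S3-like cluster.

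*Slc22a6* (OAT1) peaked in S2. Control mice 1 and 2 had 255 and 283 CPM in S1-like nuclei, 523 and 556 CPM in S2-like and 63.2 and 28.5 CPM in S3-like nuclei. Knockout mice 1 and 2 had 317 and 186 CPM in S1, 576 and 444 CPM in S2 and 75.2 and 19.9 CPM in S3. The S2 level exceeded the other segments in all 4 mice without overlap. S2 was above S1 by 1.07 (SE 0.14, adjusted p = 1.48e-06) and the difference of S3 from S2 was −3.64 (SE 0.16, adjusted p = 2.38e-14) on the log2 scale. As for *Slc22a8*, the 525 UMIs seen in S3-like nuclei stood beside 358 expected from free RNA, and with that amount subtracted the mean S3 level was 16.2 in place of 46.7 CPM. The level was not even within S1, with a mean of 89.8 CPM in the first S1-like cluster and 342 CPM in the second.

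*Slc22a12* (URAT1) was broad with its highest mean in S2. Its mean level was 173 ± 58.8 CPM in S1, 331 ± 68.4 CPM in S2 and 250 ± 45.1 CPM in S3 (SD, n = 4 mice). Within each of the 4 mice S2 was above both other segments, although the ranges of the mice overlapped between S2 and S3. S2 exceeded S1 by 1.00 (SE 0.10, adjusted p = 1.8e-08), S3 exceeded S1 by 0.50 (SE 0.10, adjusted p = 1.94e-04), and the difference of S3 from S2 was −0.49 (SE 0.09, adjusted p = 2.15e-04) on the log2 scale.

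*Slc22a19* (OAT5) was a gene of S3. In S3-like nuclei it reached 656 and 516 CPM in control mice 1 and 2 and 392 and 593 CPM in knockout mice 1 and 2. In S1-like nuclei the same mice had 14.6, 5.29, 15.2 and 3.53 CPM, and in S2-like nuclei 38.2, 43.8, 23 and 31.8 CPM. The lowest S3 value was thus far above the highest value of the other segments. S3 was above S1 by 5.57 (SE 0.20, adjusted p = 1.84e-16) and above S2 by 3.92 (SE 0.16, adjusted p = 5.45e-15) on the log2 scale. The 142 UMIs in S1-like nuclei were 1.53 times those expected from free RNA, while the 6094 UMIs in S3-like nuclei were 93.9 times. Its S2 level came mainly from the second S2-like cluster, with a mean of 50.3 CPM there and 8.4 CPM in the first.

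*Slc22a7* (OAT2), with 1105 UMIs over all proximal tubule nuclei, also rose toward S3. In S3-like nuclei control mice 1 and 2 had 76.5 and 25.9 CPM, and knockout mice 1 and 2 had 84.4 and 35.7 CPM. In S1-like nuclei the values were 7.54, 0.588, 12.5 and 0.883 CPM. The mice numbered 1 were above those numbered 2 in both segments and genotypes. *Slc22a8* ran the other way in S1 and S2, with the mice numbered 2 above those numbered 1. The libraries numbered 1 had the higher mitochondrial and damaged shares given above, whose part in these levels was not tested. Within mice, S3 was above S1 by 3.23 (SE 0.20, adjusted p = 4.23e-12) and above S2 by 1.65 (SE 0.15, adjusted p = 9.28e-09) on the log2 scale, in 4 of 4 mice each. In S1-like nuclei its 86 UMIs were 1.41 times those expected from free RNA.

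*Slc22a2* (OCT2), the cation transporter of the list, rose from S1 to S2. Its mean level was 110 ± 16.7 CPM in S1, 196 ± 28.1 CPM in S2 and 228 ± 22.5 CPM in S3 (SD, n = 4 mice). S2 was above S1 by 0.86 (SE 0.07, adjusted p = 1.12e-09) on the log2 scale, in all 4 mice and without overlap. Between S3 and S2 the log2 difference was 0.12 (SE 0.07, adjusted p = 0.185), which did not pass the test, although S3 was the higher in 4 of 4 mice. Within S1 the first cluster had a mean of 53.3 CPM and the second 137 CPM.

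*Slc22a28* and *Slc22a30* are neighbours in the block on chromosome 19 with *Slc22a29* between them, at chr19:8061958-8131982 and chr19:8335371-8405111. The 250 bases before the start that RefSeq's promoter table gives each gene are shown because they are nearly the same sequence while the levels of the 2 genes took different courses along the tubule. Both sequences are from RefSeq in mm10, are given 5′ to 3′ on the minus strand (chr19:8131983-8132232 and chr19:8405106-8405355), and have in capitals the bases at which the aligned stretches differ. The table's start of *Slc22a30* lies inside the span of the gene given above, so that its stretch overlaps that span by 6 bases.
Slc22a28: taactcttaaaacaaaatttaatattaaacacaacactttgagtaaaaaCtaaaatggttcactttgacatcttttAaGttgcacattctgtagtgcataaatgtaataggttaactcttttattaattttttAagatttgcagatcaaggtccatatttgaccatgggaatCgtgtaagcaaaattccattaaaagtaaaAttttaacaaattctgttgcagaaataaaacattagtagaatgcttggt
Slc22a30: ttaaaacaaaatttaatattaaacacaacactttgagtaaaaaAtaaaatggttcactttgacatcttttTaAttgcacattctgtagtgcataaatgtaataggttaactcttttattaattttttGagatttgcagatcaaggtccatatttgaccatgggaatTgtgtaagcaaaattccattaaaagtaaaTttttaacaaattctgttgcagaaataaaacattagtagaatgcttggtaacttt
Over 244 aligned bases these promoters were 97.5% identical, with 6 mismatches and 0 gaps. The promoter of *Slc22a29*, which lies between them, was 73.4% identical to that of *Slc22a28* over 233 columns, and that of *Slc22a19* 63.7% over 256 columns.

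*Slc22a28* was highest in S1 and S2. Its level was 1153, 1189, 1100 and 945 CPM in S1-like nuclei of the mice ordered control 1, control 2, knockout 1, knockout 2, and 1107, 1287, 964 and 902 CPM in their S2-like nuclei. In S3-like nuclei it was 577, 564, 535 and 539 CPM, below every value of S1 and S2. The difference of S2 from S1 did not pass the test (log2 −0.03, SE 0.07, adjusted p = 0.849), and that of S3 from S1 was −1.06 (SE 0.07, adjusted p = 3.21e-11).

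*Slc22a30* took the other course, low in S1 and higher from S2 on. Its level in S1-like nuclei was 673, 639, 637 and 718 CPM in the mice ordered control 1, control 2, knockout 1, knockout 2. In S2-like nuclei it was 1225, 1314, 966 and 1174 CPM, and in S3-like nuclei 1213, 1160, 1024 and 810 CPM. All values of S2 and S3 were above all values of S1, while S2 and S3 overlapped. S2 was above S1 by 0.82 (SE 0.09, adjusted p = 2.86e-07), S3 above S1 by 0.57 (SE 0.09, adjusted p = 2.69e-05), and the difference of S3 from S2 was −0.25 (SE 0.09, adjusted p = 0.0437), the last in 3 of 4 mice. This last call did not hold without control mouse 1 (−0.30), control mouse 2 (−0.25) or knockout mouse 2 (−0.13).

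How reads were divided between these 2 genes limits their values. Of the 91-base stretches of the *Slc22a28* transcript, 39.6% also occur in *Slc22a30*. Of those in its last 500 bases, where a 3′ method counts, 27.6% occur in a transcript of any other SLC22 gene. Of the *Slc22a30* transcripts 21.9% of such stretches occur in *Slc22a28* and 0% of those in the last 500 bases. The share for *Slc22a19* was 0.629%, with *Slc22a27*, and it was 0% for *Slc22a6*, *Slc22a7*, *Slc22a8* and *Slc22a12*. The values of *Slc22a28* and *Slc22a30* are therefore uncertain where they share sequence.

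*Slc22a13* (OAT10) was at 0. No nucleus of any class in any of the 4 mice held a UMI of it, and neither did any barcode of the libraries, empty droplets included. With 3 counts as the limit that a count of 0 allows, this leaves room for at most 0.135 CPM in the library of the smallest depth, a limit that covers counting error only. Of the 31053 genes 5923, or 19.1%, were likewise at 0 in every barcode. Its neighbour *Slc22a14*, at chr9:119169453-119190430, was counted with 5415 UMIs in the named classes and rose from 72.2 CPM in S1 to 139 CPM in S3. Of the 91-base stretches of the *Slc22a13* transcript, 29.5% also occur in *Slc22a13b*, and their part in the count of 0 was not tested.

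Outside the list, 16 other SLC22 genes were in the files and 15 could be tested between segments. Between S3 and S1, 4 were higher and 5 lower. The 2 genes of the chromosome 19 block next to *Slc22a19* followed it in direction: *Slc22a26* rose from 1.61 CPM in S1 to 75.2 CPM in S3 (log2 difference 5.44, SE 0.25, adjusted p = 1.53e-14), and *Slc22a27* from 3.36 to 13.2 CPM (2.00, SE 0.25, adjusted p = 4.77e-07). *Slc22a29*, between *Slc22a28* and *Slc22a30*, went the other way and was mainly in S1-like nuclei, with 49.3 CPM there and 2.75 CPM in S3 (−4.21, SE 0.22, adjusted p = 2.27e-13), and within S1 with 109 CPM in the first cluster and 20.9 CPM in the second. *Slc22a5*, the carnitine carrier OCTN2, fell from 266 to 69.6 CPM (−2.02, SE 0.09, adjusted p = 3.87e-15). *Slc22a4*, the related carrier OCTN1, rose from 103 to 197 CPM. In S2 against S1, 3 of the 15 were higher and 4 lower, and in S3 against S2, 3 were higher and 5 lower.

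The 20 partner genes cover the carriers that supply dicarboxylates for anion exchange, those that pass organic ions on to the lumen, urate carriers, other anion carriers and scaffold proteins. Between S2 and S1, 12 of the 20 were higher and 3 lower, between S3 and S1, 10 higher and 6 lower, and between S3 and S2, 5 higher and 10 lower. *Slc13a3*, the dicarboxylate carrier NaDC3, moved as *Slc22a6* did, with 330 CPM in S1, 719 CPM in S2 and 45.1 CPM in S3 (S3 against S2: log2 −4.10, SE 0.10, adjusted p = 4.36e-19), and is itself one of the 6 S2 markers, which were used only after the clusters had been made. *Abcc4*, the efflux pump MRP4, fell from 162 CPM in S1 to 4.02 CPM in S3. *Slc47a1* (MATE1), which passes cations to the lumen, had its highest segment mean in S2, with 992, 1228 and 1105 CPM in S1, S2 and S3. S2 was above S1 (log2 0.33, SE 0.06, adjusted p = 2.61e-04), and S3 was below S2 (log2 −0.25, SE 0.06, adjusted p = 0.00357). The difference of S3 from S1 did not pass the test (log2 0.08, SE 0.06, adjusted p = 0.333). Among the segments *Slco4c1* was found mainly in S3, with 35.2 CPM there and 0.27 CPM in S1. Its highest mean over the named classes was in intercalated cells, at 53 CPM. *Pdzk1*, a scaffold of luminal transporters, gave a log2 difference of −0.00 between S3 and S1 (SE 0.07, adjusted p = 0.972).

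For transcription regulators of proximal tubule transporters, levels are given without a test because they took part in the clustering. Mean *Hnf4a* was 382, 419 and 426 CPM in S1, S2 and S3. *Ppara* stood at 475 CPM in S1 and 217 CPM in S3, and *Bcl6* at 44.1 and 135 CPM.

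In the other cell types the members were mostly low, with counts of the size of the free RNA estimate described below, though not evenly across classes. In all 4 mice 7 of the 8 detected members had their highest level in proximal tubule nuclei, over 12 broad classes. The exception, *Slc22a7*, was higher in immune cells in 3 of the 4 mice, but on 7 UMIs in all, with 3.73 expected from free RNA. The share of free RNA in each class outside the proximal tubule was estimated from 9 other proximal tubule markers, so that the members had no part in it. Called doublets were kept in this estimate, so proximal tubule RNA in doublets counts toward the share. An observed number near the expected one therefore does not separate free RNA from doublets. In CD-PCs, the cells in which *Hoxb7Cre* acts, *Slc22a2* had 118 UMIs with 117 expected, *Slc22a6* 238 with 318, *Slc22a12* 195 with 232 and *Slc22a30* 232 with 244. The highest ratios in CD-PCs were 1.29 for *Slc22a19* (76 UMIs) and 1.2 for *Slc22a28* (233 UMIs). For the 8 detected members a level in CD-PCs beyond the expected number was not resolved at this depth. The part of doublets in the expected numbers was not tested. In other classes the counts lay further from the expected number. *Slc22a2* had 64 UMIs in DCT (distal convoluted tubule) with 35.7 expected and 291 in TAL (thick ascending limb) with 202, and *Slc22a12* had 228 in endothelium with 159. *Slc22a28* was below the expected number, with 52 UMIs in endothelium against 144 and 184 in TAL against 355. The estimate is thus rough for a single gene, and counts between these ratios are not read as expression.

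**Figure D2:**
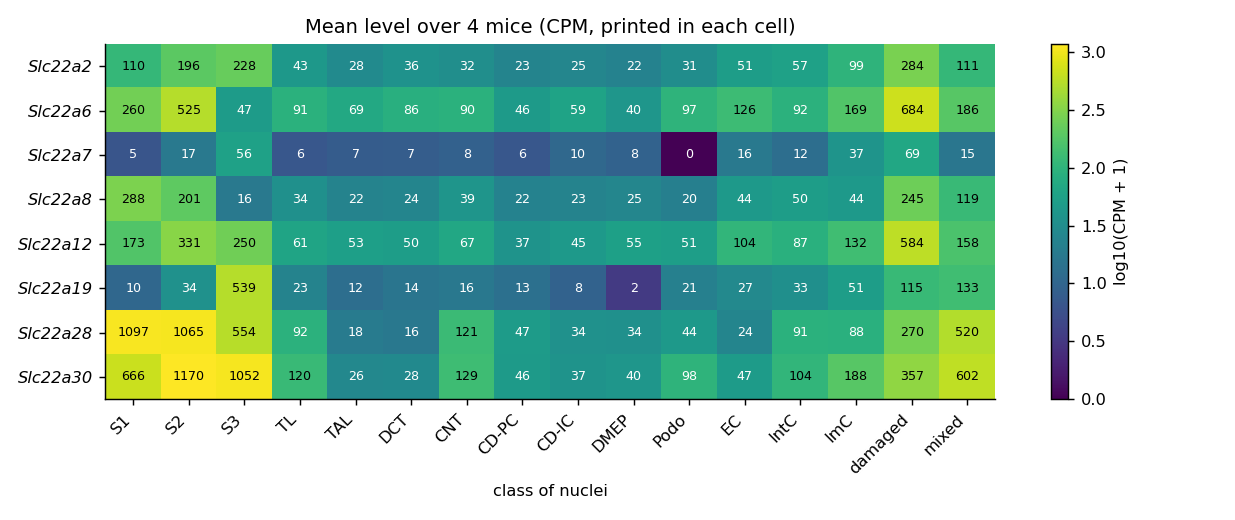
Mean level over the 4 mice (CPM, printed in each cell and colored as log10(CPM + 1)) of each gene (rows) in 16 classes of nuclei (columns): the 3 proximal tubule segments, TL and TAL (thin and thick limbs of Henle's loop), DCT and CNT (distal convoluted and connecting tubules), principal (CD-PC) and intercalated (CD-IC) cells, deep medullary epithelium of the pelvis (DMEP), podocytes (Podo), endothelium (EC), interstitium (IntC), immune cells (ImC), and damaged and mixed nuclei. Levels are to be compared within a row, not between rows. Within a row the highest levels are in the proximal tubule segments or, for *Slc22a2*, *Slc22a6*, *Slc22a7* and *Slc22a12*, in damaged nuclei.

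The order of levels outside the proximal tubule could not be resolved. For *Slc22a6*, immune cells, endothelium, podocytes and interstitium followed S2 and S1 with means of 169, 126, 97.2 and 91.6 CPM, and each overlapped the next. For *Slc22a30*, means ran from 188 CPM in immune cells to 25.9 CPM in TAL, and every neighbour in that order overlapped the next. *Slc22a28* gave 121 CPM in CNT (connecting tubule) and 15.9 CPM in DCT. The estimated free RNA of control mice 1 and 2 and knockout mice 1 and 2 was 41.9%, 18%, 30.4% and 27.1% in CNT. In DCT the same mice had 16%, 7.58%, 18.8% and 4.09%. With called doublets left out, the mean of *Slc22a28* in CNT was 22.8 CPM in place of 121, and that of *Slc22a30* 21.7 in place of 129. In CD-PCs it was 17.2 CPM in place of 46.9 for *Slc22a28* and 16.7 in place of 45.5 for *Slc22a30*. S3-like nuclei themselves ranked below most other classes for *Slc22a8*, which had its lowest mean of all named classes there, 16.3 CPM.

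**Figure D3:**
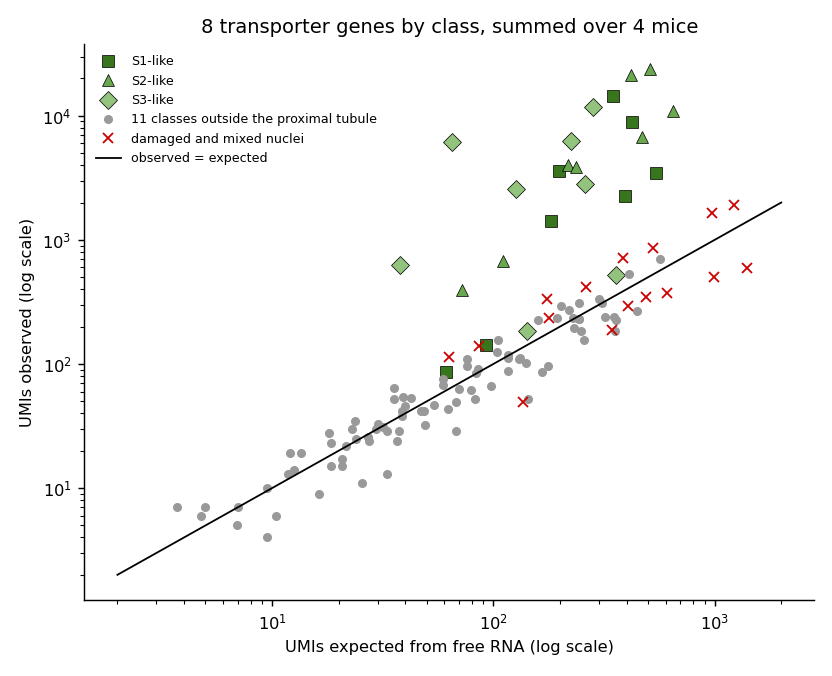
UMIs observed against UMIs expected from free RNA (both axes logarithmic) for the 8 detected genes in each class, summed over the 4 mice. Called doublets were kept, so the expected numbers can include RNA from doublets. Grey points, the 11 classes outside the proximal tubule, scatter about the line of equality, red crosses are damaged and mixed nuclei, and the S1-, S2- and S3-like nuclei lie above it, the nearest being *Slc22a6* and *Slc22a8* in S3 (1.47 and 1.29 times the expected number) and *Slc22a7* and *Slc22a19* in S1 (1.41 and 1.53 times).

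Some of the members were abundant outside intact nuclei. In barcodes with under 100 UMIs, which hold free RNA and no nucleus, the level of *Slc22a6*, pooled over the 4 libraries, was 128% of its level in proximal tubule nuclei, that of *Slc22a7* 145%, *Slc22a8* 126% and *Slc22a12* 116%. By mouse the range was 110% to 159% for *Slc22a6*, 73.3% to 285% for *Slc22a7*, 93.9% to 133% for *Slc22a8* and 97.6% to 146% for *Slc22a12*. Knockout mouse 2 was the lowest for all 4 genes and was below 100% for the last 3. Among 506 genes of the proximal tubule the median of this percentage was 42.1 and the quartiles were 28.9 and 64.9. *Slc22a2* (90.5%) was also above the upper quartile, *Slc22a19* (56.5%) was within the quartiles, and *Slc22a28* (31.8%) and *Slc22a30* (38.6%) were below the median. In damaged nuclei, of which control mouse 1 and knockout mouse 1 gave 257 and 576 and the other mice 26 and 30, *Slc22a7* stood at 136% to 410% of the proximal tubule level by mouse and *Slc22a12* at 154% to 266%. *Slc22a28* stood at 16.7% to 48.9% and *Slc22a30* at 21.3% to 68.8%, without overlap with the former genes.

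This percentage was lower in longer genes. *Slc22a7*, *Slc22a12*, *Slc22a6* and *Slc22a8* span 6.29, 7.22, 10.3 and 20.6 kb, whereas *Slc22a28* and *Slc22a30* span 70 and 69.7 kb. Of the 506 proximal tubule genes 471 had a span in RefSeq: the median percentage was 80.9 for the 68 genes under 10 kb, 57.2 for the 107 of 10 to 25 kb, 51.2 for the 118 of 25 to 50 kb and 30.1 for the 178 over 50 kb. Across these genes, which are not independent replicates, Spearman's rho between span and percentage was −0.561. *Slc22a6*, *Slc22a7*, *Slc22a8* and *Slc22a12* stood at the 96th, 98.2nd, 95.5th and 93.9th percentile of the 506 genes, of which *Slc22a7* is not itself one. Whether reads in introns were counted is not given in the sources used here, and the reason for the relation was not tested.

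**Figure D4:**
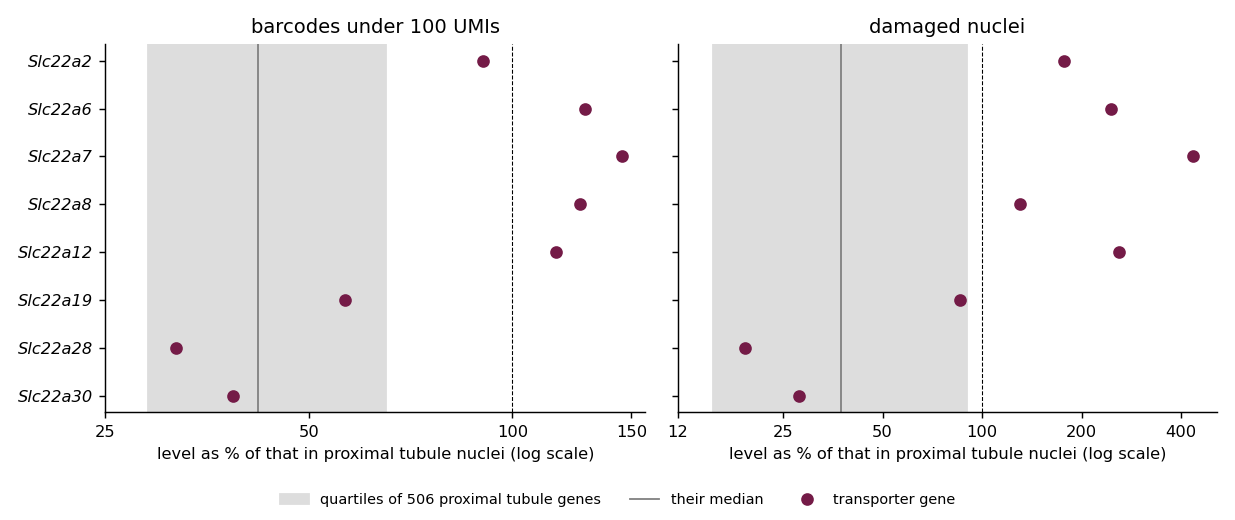
Level of each gene in barcodes under 100 UMIs (left) and in damaged nuclei (right) as a percentage of its level in proximal tubule nuclei, pooled over the 4 libraries, on log axes. The grey band and line are the quartiles and median of 506 proximal tubule genes, and the dashed line marks 100%. *Slc22a6*, *Slc22a7*, *Slc22a8* and *Slc22a12* lie to the right of 100% in both panels, and *Slc22a28* and *Slc22a30* lie inside the band.

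Between knockout and control mice no member was called in any class. In all proximal tubule nuclei together 0 of 8 members passed, where 0.00565% of 17699 genes did, and likewise 0 of 8 in S1-like (0.00694% of all genes), S2-like (0.00645%) and S3-like nuclei (0.0273%) and in CD-PCs (0%), all by the same edgeR test and threshold. At an unadjusted p under 0.05 there was 1 member in the proximal tubule and 1 in S2, *Slc22a19* in both, and none in S1, S3 or CD-PCs. Of all genes tested, 627 of 17699 were under this limit in the proximal tubule and 474 of 15504 in S2. In S1 they were 399 of 14400, in S3 427 of 14626 and in CD-PCs 297 of 13635. DESeq2 called none in these 5 classes. With 2 mice per group an exact permutation test cannot go below a p of 0.33.

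In the proximal tubule as a whole the largest difference was in *Slc22a19*. Over all proximal tubule nuclei it stood at 179 and 217 CPM in the controls and at 91.7 and 156 CPM in the knockouts, so both knockout mice were below both controls (log2 −0.70, SE 0.27, unadjusted p = 0.0454, adjusted p = 1). The gene was counted mainly in S3, and the S3-like share of proximal tubule nuclei moved with it, 21.8% and 35.7% among controls against 17.9% and 23.5% among knockouts, whose part in the difference was not tested apart from the values within segments. Within S3-like nuclei the groups overlapped, and the log2 difference was −0.29 (SE 0.25, adjusted p = 0.999). In S2-like nuclei, where few UMIs were counted, it was −0.63 (SE 0.23, unadjusted p = 0.0334, adjusted p = 1).

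*Slc22a12*, *Slc22a28* and *Slc22a30* were also lower in both knockout mice than in both controls over the proximal tubule, which held for 4 of the 8 members with *Slc22a19* and for 13.9% of all genes. *Slc22a12* had 291 and 313 CPM in the controls and 271 and 181 CPM in the knockouts (log2 −0.43, SE 0.24, adjusted p = 1). *Slc22a28* had 994 and 985 against 923 and 829 CPM (log2 −0.19, SE 0.16, adjusted p = 1), and *Slc22a30* had 1051 and 1095 against 877 and 954 CPM (log2 −0.25, SE 0.16, adjusted p = 1). *Slc22a2*, *Slc22a6*, *Slc22a7* and *Slc22a8* overlapped between the groups, with log2 differences of −0.22, 0.10, 0.21 and 0.12. By segment, the members with both knockout mice below both controls were 1 of 8 in S1 (*Slc22a28*, against 12.5% of all genes), 4 of 8 in S2 (*Slc22a12*, *Slc22a19*, *Slc22a28* and *Slc22a30*, against 11.3%) and 4 of 8 in S3 (*Slc22a2*, *Slc22a12*, *Slc22a28* and *Slc22a30*, against 12.4%). Both knockout mice were above both controls for 0 of 8 members in the proximal tubule (16.7% of all genes), S1 (17.1%), S2 (19.7%), S3 (17.3%) and CD-PCs (12.9%), and both were below for 1 of 8 in CD-PCs, *Slc22a19* (13.6%). The members' median log2 difference was −0.27 in S2 and −0.24 in S3, with 0.01 for all genes in each. None of these single differences passed the test, and the 8 members share their 4 mice.

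**Figure D5:**
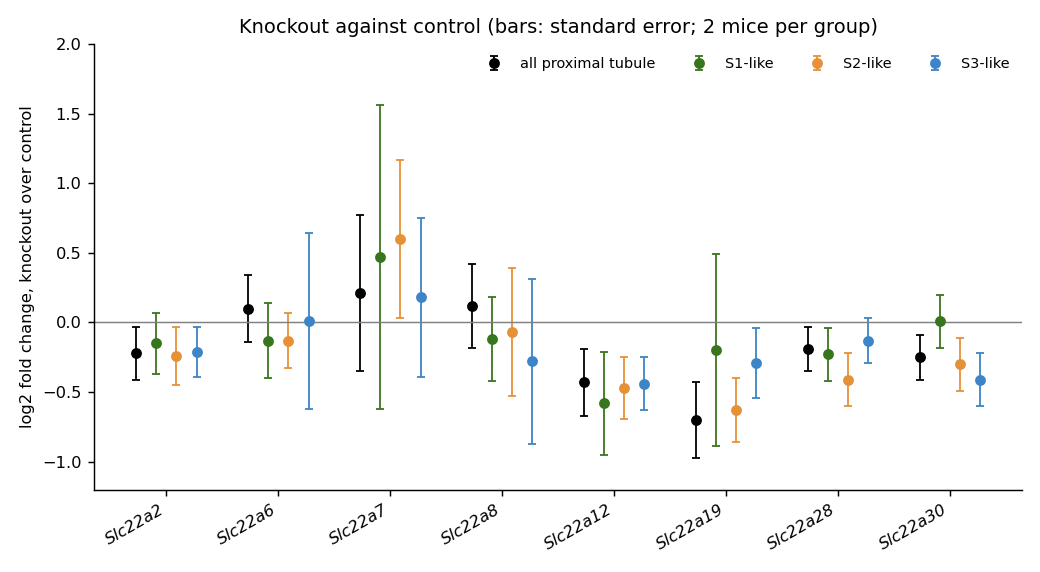
Log2 fold change of knockout over control (y axis) for each gene (x axis) in all proximal tubule nuclei and in each segment, with bars of 1 standard error from edgeR's fit and 2 mice per group. Most points lie within 2 standard errors of 0, and *Slc22a12*, *Slc22a19*, *Slc22a28* and *Slc22a30* lie mostly below it.

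The course along the tubule was compared between the genotypes through the difference of the knockout change in S3 and that in S1. None of the 8 members passed, where 0.113% of all genes did. At an unadjusted p under 0.05 there were 856 of all 17699 genes and 1 member, *Slc22a30*, with a difference of −0.45 (SE 0.16, unadjusted p = 0.00992, adjusted p = 0.794). Its S1 levels were close between groups (log2 0.01, SE 0.19), and its S3 levels were 1213 and 1160 CPM in control and 1024 and 810 CPM in knockout mice (log2 −0.41, SE 0.19, adjusted p = 0.999). These differences moved when 1 mouse was left out. Without knockout mouse 1, which leaves 1 knockout mouse, the difference was −1.95 for *Slc22a8*, in place of −0.19. For *Slc22a30* it was −0.73 in place of −0.45. *Slc22a8* in S3 rests on counts near those of free RNA.

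Of the other SLC22 genes, 15 were tested in the proximal tubule and 0 were called by edgeR or DESeq2, with 1 at an unadjusted p under 0.05. This was *Slc22a26*, the neighbour of *Slc22a19*, at 37.2 CPM in control and 13.3 CPM in knockout mice on average (log2 −1.49, SE 0.48, unadjusted p = 0.0228, adjusted p = 1). Within S3-like nuclei its difference was −1.08 (SE 0.29, unadjusted p = 0.00772, adjusted p = 0.999). Of the 20 partner genes 0 were called in the proximal tubule by either tool, and 2 had an unadjusted p under 0.05 by edgeR. So did 627 of all 17699 genes tested there. In CD-PCs the members' log2 differences ran from −1.38 for *Slc22a19* (SE 0.79, adjusted p = 1) to 0.82 for *Slc22a7* (SE 0.90, adjusted p = 1), and 7 of the 8 were positive. Of the 13635 genes tested in these cells 6790 were positive. The UMIs of the members there were 0.749 to 1.29 times those expected from free RNA.

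The genes most like each member across 56 sums (14 classes in 4 mice) were taken from 13284 genes by Pearson's r of log2(CPM + 1). These sums share libraries, depth and free RNA, so the values are a description. *Cyp4b1* and *Slc34a1* were also among the segment markers. *Slc22a2* was nearest to *Ak4* (0.923), *AI314278* (0.907) and *Slc27a2* (0.89), and *Slc22a6* to *Cyp4b1* (0.871), *Slc34a1* (0.846) and *Miox* (0.827). *Slc22a7* was nearest to *Apoc3* (0.814), *Slc22a8* to *Asl* (0.823) and *Clec2h* (0.819), and *Slc22a12* to *Amacr* (0.915). *Slc22a19* was nearest to *Aadat* (0.794), which itself went from 107 CPM in S1 to 1869 CPM in S3. *Slc22a28* was nearest to *Hnf4aos* (0.941), and *Slc22a30* to *Gm19950* (0.952), *Pter* (0.952) and *Keg1* (0.939). Among the members themselves r was highest between *Slc22a28* and *Slc22a30* (0.866), whose transcripts share sequence, and lowest between *Slc22a8* and *Slc22a19* (−0.153).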

How the data were processed

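The authors made single-nucleus libraries (10x Genomics 3′ chemistry) from 2 control and 2 knockout mice, and per the labels aligned and counted reads with Cell Ranger 3.0.2 on mm10. The deposited matrices hold raw UMI counts per gene and barcode, 1 matrix per mouse. Whether reads in introns were counted is not given in the sources used here.

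The 10000 barcodes with the most UMIs per library were filtered to 500 to 4000 genes and under 5% mitochondrial UMIs, and integrated and clustered with Seurat 5.3.0 (2000 variable genes, 30 dimensions, resolution 0.5) with 46 genes, the SLC22 and partner genes, held out. Doublets were called on simulated pairs of nuclei and kept, with their removal as an alternative. Clusters were named from marker lists, and segments by the highest mean relative marker level, a rule set after the clusters were seen. Sums of counts over the nuclei of a class in a mouse were tested, for genes reaching 10 UMIs, by edgeR 4.0.16 (quasi-likelihood, TMM, Benjamini-Hochberg, R 4.3.3), with DESeq2 1.42.0 as an alternative. Segments were compared over 12 sums with the mouse as a term. CPM are UMIs per 1000000 UMIs of the class. Free RNA was read from barcodes with under 100 UMIs, and its share of each class from markers of other cell types. Called doublets were kept for this share, so RNA of another cell type in a doublet counts toward it. The tests were tried on simulated counts with known changes in genes drawn from all those tested. Of 100 genes changed 2-fold between genotypes, 7 were called in the proximal tubule. In S1, S2, S3 and CD-PCs 5, 11, 10 and 8 were called. Of 100 changed 4-fold, 64 to 74 were called. The absence of calls between genotypes thus does not exclude 2-fold changes. Between segments 56 to 66 of 100 changed 2-fold were called, with 15 to 25 false calls. The labels do not say that mice of the same number share a batch or litter. P-values of the genotype tests within a class measure the spread between mice of a group. Tests between segments, and of the knockout change in S3 minus that in S1, have the mouse as a term. Their p-values measure how far segment differences vary across these 4 mice.

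Genes named are the members, the other SLC22 genes, partners, regulators, cell type markers, *Tfap2a*, the genes most like each member, and *Slc22a13b*, named for its shared sequence. The members and lists were chosen with earlier results of these data known. Transcript sequences for shared stretches came from an older annotation and gave no coordinates. Some listed genes are not reported here.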

Additional observations from a re-analysis of the deposited data

Results flagged for a closer look

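In barcodes with under 100 UMIs, which the comparisons did not use, *Slc22a28* stood at 341 and 379 CPM in knockout mice 1 and 2, a mean of 360 CPM, above the 298 and 189 CPM of control mice 1 and 2, a mean of 244 CPM. The groups did not overlap, and the difference was not tested. *Slc22a19* did not overlap there either, in the other direction, with 87 and 112 CPM in the control mice and 77.8 and 64.4 CPM in the knockout mice. In proximal tubule nuclei *Slc22a28* and *Slc22a19* were each lower in both knockout mice than in both control mice. The other detected members overlapped between the groups in the barcodes with under 100 UMIs. How many of all genes were without overlap in those barcodes was not counted, so the separation is not read as particular to these genes.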

How the results depend on the processing

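No member was called between knockout and control in the proximal tubule, its segments or CD-PCs under any alternative run. With the second S2-like cluster counted as S3-like, an alternative chosen after seeing the data, 4 members in place of 7 were called between S2 and S1, and the log2 differences that reversed were 0.17 for *Slc22a8* and −0.24 for *Slc22a19* (S2 against S1), 0.10 for *Slc22a6* (S3 against S1) and 0.07 for *Slc22a30* (S3 against S2). With free RNA subtracted, the knockout difference of *Slc22a30* in S1 was −0.01. The call of *Slc22a30* between S3 and S2 was lost in several settings, DESeq2 among them (−0.22). The causes were not tested.

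Leaving out each mouse in turn gave 8 members called in each case for S3 against S1. For comparisons of the genotypes it left 1 mouse in 1 of the groups, so only log2 differences are given. Knockout differences that changed sign ran from −0.24 to 0.35 (*Slc22a6*), −0.61 to 0.96 (*Slc22a7*) and −0.3 to 0.44 (*Slc22a8*) in the proximal tubule, −0.46 to 0.25 (*Slc22a8*) and −0.08 to 0.1 (*Slc22a30*) in S1, −0.34 to 0.04 (*Slc22a6*) in S2 and −0.58 to 1.18 (*Slc22a7*) in S3. *Slc22a28* ran from −0.08 to 0.03 in S2 against S1. For the knockout change in S3 minus that in S1 the ranges were −0.23 to 0.04 (*Slc22a2*), −0.73 to 0.8 (*Slc22a6*), −2.27 to 1.73 (*Slc22a7*), −1.95 to 0.82 (*Slc22a8*), −0.23 to 0.65 (*Slc22a12*), −1.06 to 1.63 (*Slc22a19*) and −0.05 to 0.18 (*Slc22a28*).

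Samples of the same number deviated together (correlation 0.223 to 0.274 in 5 classes), but with 2 pairs and no label this is not a design. The replicate block left 0 members called in each knockout comparison and moved the genes called in the proximal tubule from 1 to 17. The tests between segments had the mouse as a term and no term for the mouse number. With the mouse term left out, which ignores that the segments come from the same mice, fewer members were called. They were 5, 7 and 5 for S2 against S1, S3 against S1 and S3 against S2, in place of 7, 8 and 7. Over the other settings the genes called between knockout and control numbered 0 to 20 in the proximal tubule, 1 to 112 in S1, 0 to 168 in S2, 1 to 96 in S3 and 0 to 46 in CD-PCs, and 2651 to 5205 between S2 and S1.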
